A study of Mus musculus with 20 samples.

Results

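Late-numbered miRNAs are the mouse miRNAs whose miRBase number is 3000 or higher, the youngest entries of the catalogue these libraries were counted against. Members were the miRNAs so numbered with a mean raw count of at least 5 over the 20 libraries and a position outside the part of chromosome 12 that holds a large imprinted miRNA cluster. Of 1137 mature miRNAs in the table, 145 were members. Another 8 late-numbered miRNAs lay in that cluster region and 59 fell under the count minimum, out of 212 in all. The members carry numbers between 3057 and 5627. Only the mean raw count, taken over all 4 groups together, chose them. miR-3064-5p, miR-3074-2-3p and miR-5107 stood on the limit at a mean count of 5.0, and miR-3060-5p at 4.95 and miR-5709 at 4.85 fell just outside it.

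The libraries were made from the skin of inbred FVB/N mice in a chemical model of skin cancer. A single dose of the mutagen DMBA initiates tumours in this model and repeated doses of the phorbol ester PMA promote them. There were 5 libraries each of healthy skin treated with acetone, hyperplastic skin treated with DMBA and PMA, papillomas, which are benign, and malignant carcinomas of the squamous epithelium (cSCC), both from treated skin. Hyperplastic skin, papillomas and cSCC share the DMBA and PMA treatment, so against healthy skin the treatment and the lesion cannot be told apart. The labels do not say that each library came from its own mouse, and p-values measure the spread between these libraries.

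A miRNA is cut from a hairpin precursor, whose arms can each give a mature strand, named 5p and 3p. The strand enters an Argonaute protein and pairs with target mRNAs mainly through its seed, bases 2 to 8 from the 5′ end. miRBase numbers run in the order in which entries were registered, so high numbers belong to miRNAs that were found late. Many late entries rest on few sequencing reads, and some entries of the catalogue have been recognised as pieces of tRNA, rRNA, snoRNA or repeats.

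The sequences shown first are those of members that share stretches with each other. RefSeq's table for GRCm38.p6 held 111 of the 145 members under the same name. Bases 2 to 8 are in capitals. miR-3470b and miR-3473b repeat across the transcriptome, and miR-5128 shares a run of bases with miR-3473b. miR-3473c and miR-3473d hold the reverse complement of 12 and 8 bases of miR-3473b. miR-3963, miR-3968 and miR-5100 share a core near their 5′ ends.
miR-3470b: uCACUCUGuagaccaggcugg
miR-3473b: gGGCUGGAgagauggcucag
miR-3473c: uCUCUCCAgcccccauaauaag
miR-3473d: cCACUGAGccacuuuccagcccuu
miR-5128: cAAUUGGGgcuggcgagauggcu
miR-3963: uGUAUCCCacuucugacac
miR-3968: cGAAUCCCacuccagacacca
miR-5100: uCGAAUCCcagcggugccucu

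The exact sequence of miR-3470b was found in the transcripts of 546 GENCODE genes, and its reverse complement in 497. miR-3473b was found in 344 genes, and its reverse complement in 390. miR-3471 followed with 34 and 27 genes. These were the 3 members, 2.703% of those matched, with a sequence in 10 or more genes, against 0.139% of 720 matched miRNAs with lower numbers or named let-7. B1 and B2 elements are short interspersed repeats that occur throughout the mouse genome, and as background miR-3470b spells part of a B1 element and miR-3473b part of a B2 element. miR-5128 shares a run of 9 bases with miR-3473b (gagauggcu), and miR-3473c holds the reverse complement of 12 bases of miR-3473b (gggcuggagaga). miR-3968 and miR-5100 share 9 bases (cgaauccca), and miR-3963 and miR-3968 share 8 (aucccacu). How reads matching several places were counted is not given in the sources used here, so the counts of these members are uncertain one by one.

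The second set of sequences belongs to matched members that differed between groups or whose arms differed. miR-5102, miR-5105, miR-5109 and miR-5115, which are among the members with the largest folds, had no entry of the same name. Their sequences, seeds and hosts were therefore not examined.
miR-3971: cUCCCCACcccuguaccaguga
miR-3087-5p: cAGGGCAGggcaagaguugag
miR-3087-3p: uAACUCACugucauguccuca
miR-5126: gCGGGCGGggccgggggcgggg
miR-3068-5p: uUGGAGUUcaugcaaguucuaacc
miR-3068-3p: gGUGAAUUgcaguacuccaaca
miR-3102-3p: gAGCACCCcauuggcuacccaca
miR-3063-3p: uGAGGAAUccugaucucucgcc
miR-3085-3p: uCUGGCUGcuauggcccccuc
miR-3064-5p: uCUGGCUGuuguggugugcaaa

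miR-3085-3p and miR-3064-5p share the seed CUGGCUG, the only seed that any 2 matched members had in common. The seed of miR-3473d, CACUGAG, also occurs in miR-1947-3p and miR-674-5p. Matched members were 19 to 25 bases long, with a median of 22, and their GC content ranged from 30% in the lowest to 100% in miR-5126. The median GC content was 54.5%, against 47.8% in the matched miRNAs with lower numbers or named let-7.

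Depth differed between the groups. The libraries held on average 4022991 mature miRNA counts in healthy skin (2884177 to 4921719), 4505583 in hyperplastic skin (3142228 to 6904298), 1832691 in papillomas (1060615 to 2370313) and 2381904 in cSCC (1614803 to 2903657). Papilloma libraries did not overlap in depth with healthy or hyperplastic libraries, nor cSCC with hyperplastic libraries, so depth and stage cannot be told apart in these comparisons. Cell type markers differed as well. The 2 keratinocyte miRNAs, miR-205-5p and miR-203-3p, summed to 146128 to 240421 normalised counts (CPM) in healthy skin, 164203 to 212840 CPM in hyperplastic skin, 103681 to 200222 CPM in papillomas and 71048 to 137654 CPM in cSCC. The cSCC libraries all lay below the healthy ones. The 4 striated muscle miRNAs summed to 19320 to 77334 CPM in healthy skin, 16448 to 49894 CPM in hyperplastic skin, 1753 to 9174 CPM in papillomas and 1561 to 3616 CPM in cSCC. The 4 leukocyte miRNAs summed to 18550 to 35817 CPM in healthy skin, 9620 to 22769 CPM in hyperplastic skin, 14898 to 60579 CPM in papillomas and 47618 to 109474 CPM in cSCC. The 2 smooth muscle, 2 endothelial and 2 melanocyte miRNAs were also lower in cSCC than in healthy skin without overlap, at 13902 to 24309, 8811 to 19035 and 67.6 to 147 CPM in cSCC, against 53599 to 110327, 23610 to 43320 and 687 to 2197 CPM in healthy skin. The 3 erythroid miRNAs overlapped, at 2834 to 7702 CPM in cSCC, against 2221 to 6936 CPM in healthy skin. No marker of these lists was at 0. Their part in the results was not tested, and in whole tissue fewer cells of a type and less RNA per cell cannot be told apart. CPM are read counts scaled to the same mature miRNA total in each library, with TMM factors that set most miRNAs level between libraries.

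Most members were rare. Of the 145, 90 had a mean count of 5 to 20, 33 of 20 to 100 and 22 of 100 or more, and the median of their mean counts was 14.2. The 6 most abundant held 58.8% of the 456316 counts of all members, and the 22 above 100 held 90.1%. Members together took 0.502% of the mature miRNA counts in healthy skin, 0.625% in hyperplastic skin, 1.32% in papillomas and 1.02% in cSCC, as means of 5 libraries. Their summed raw counts averaged 19295 ± 2475 in the healthy libraries and 26749 ± 8080 in the hyperplastic ones (SD, n = 5 each). The sums were 21933 ± 1422 in papillomas and 23286 ± 2978 in cSCC. The raw sum was lowest on average in healthy skin, although each healthy library was deeper than each papilloma library.

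**Figure D1:**
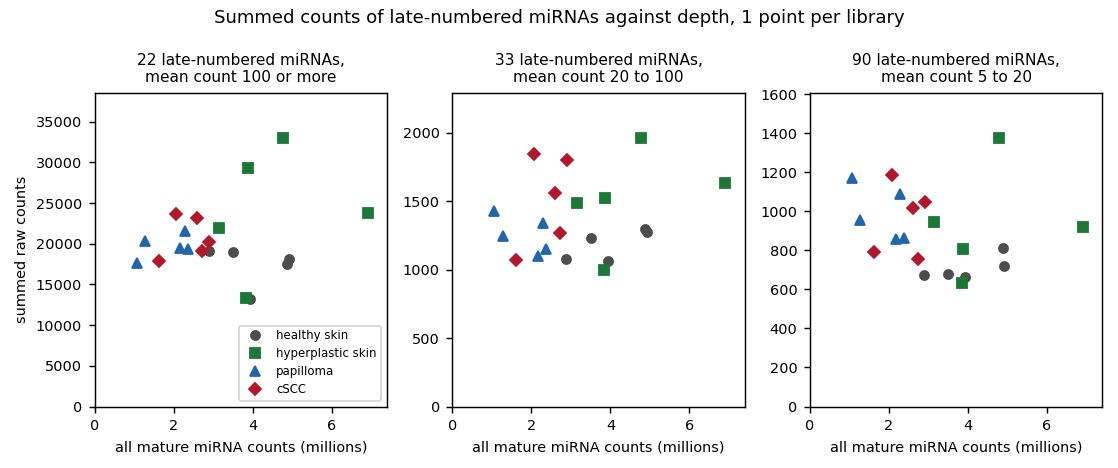
Summed raw counts of the members in 3 classes of mean count (5 to 20, 20 to 100, 100 or more) against the total mature miRNA count of each of the 20 libraries, on linear axes. Papilloma libraries lie toward the left, between 1060615 and 2370313 total counts, and their summed counts in the 5 to 20 class were 860 to 1172, against 665 to 813 in the deeper healthy libraries.

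Levels were most even among the libraries of healthy skin. Over the 22 members with a mean count of 100 or more, the coefficient of variation of CPM had a median of 24.4% in healthy skin, 34.7% in hyperplastic skin, 34.8% in papillomas and 45.8% in cSCC. The steadiest in healthy skin was miR-3470b at 13.2% and the most variable miR-5115 at 98.6%. In papillomas miR-5109 varied by 89.7%, and in cSCC miR-5102 by 83.3%.

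The most abundant member, miR-3963, had 537, 674, 1922, 1129 and 947 CPM in healthy skin and 1504, 1175, 1554, 841 and 516 CPM in hyperplastic skin. It had 1745, 1706, 1457, 960 and 981 CPM in papillomas and 787, 1818, 1129, 2942 and 1816 CPM in cSCC. The groups overlapped throughout, and its test across the 4 groups gave an edgeR adjusted p of 0.272. miR-5099 and miR-5097 gave 0.32 and 0.351 in the same test. miR-3968, miR-5100 and miR-5121, at 104 to 437, 48.0 to 261 and 176 to 558 CPM over the 20 libraries, did not pass it either (adjusted p = 0.359, 0.247 and 0.327). miR-5121 lies over a snoRNA entry of the table, and a small nucleolar RNA guides chemical modification of other RNAs.

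**Figure D2:**
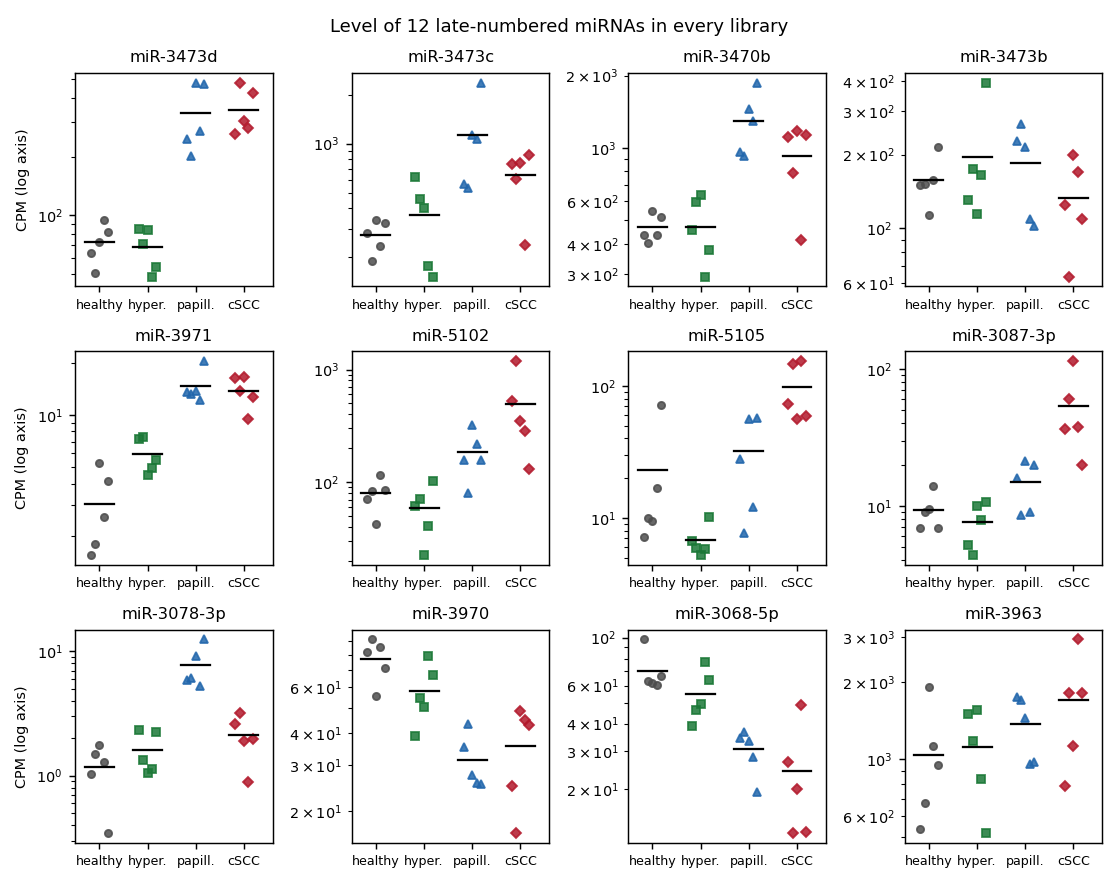
CPM of 12 members in healthy skin, hyperplastic skin, papillomas and cSCC, on a log axis; each point is a library and the black line is the mean of 5. miR-3473d lies between 201 and 477 CPM in all papilloma and cSCC libraries and between 48.4 and 95.0 CPM in all other libraries, while the groups of miR-3963 overlap.

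Differences among the stages were tested with edgeR's quasi-likelihood F test on all 850 mature miRNAs that passed its low-count filter, with adjustment by Benjamini-Hochberg over all of them and a threshold of 0.05. Of the members 127 were tested, and the 18 left out had mean counts of 5.0 to 6.25. A rare member could pass the filter through 1 group where it was high, so counts over the tested members describe them and support nothing further. Across the 4 groups 66 of 127 members were called (52.0%), beside a background of 56.0% of all miRNAs tested. Among these 66, the mean was highest in healthy skin for 6, in hyperplastic skin for 3, in papillomas for 35 and in cSCC for 22. Among the 61 tested members not called, it was highest in healthy skin for 3, in hyperplastic skin for 7, in papillomas for 32 and in cSCC for 19. Among the 410 other miRNAs called, it was highest in healthy skin for 137, in hyperplastic skin for 47, in papillomas for 92 and in cSCC for 134. These others were not matched to the members by mean count.

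**Figure D3:**
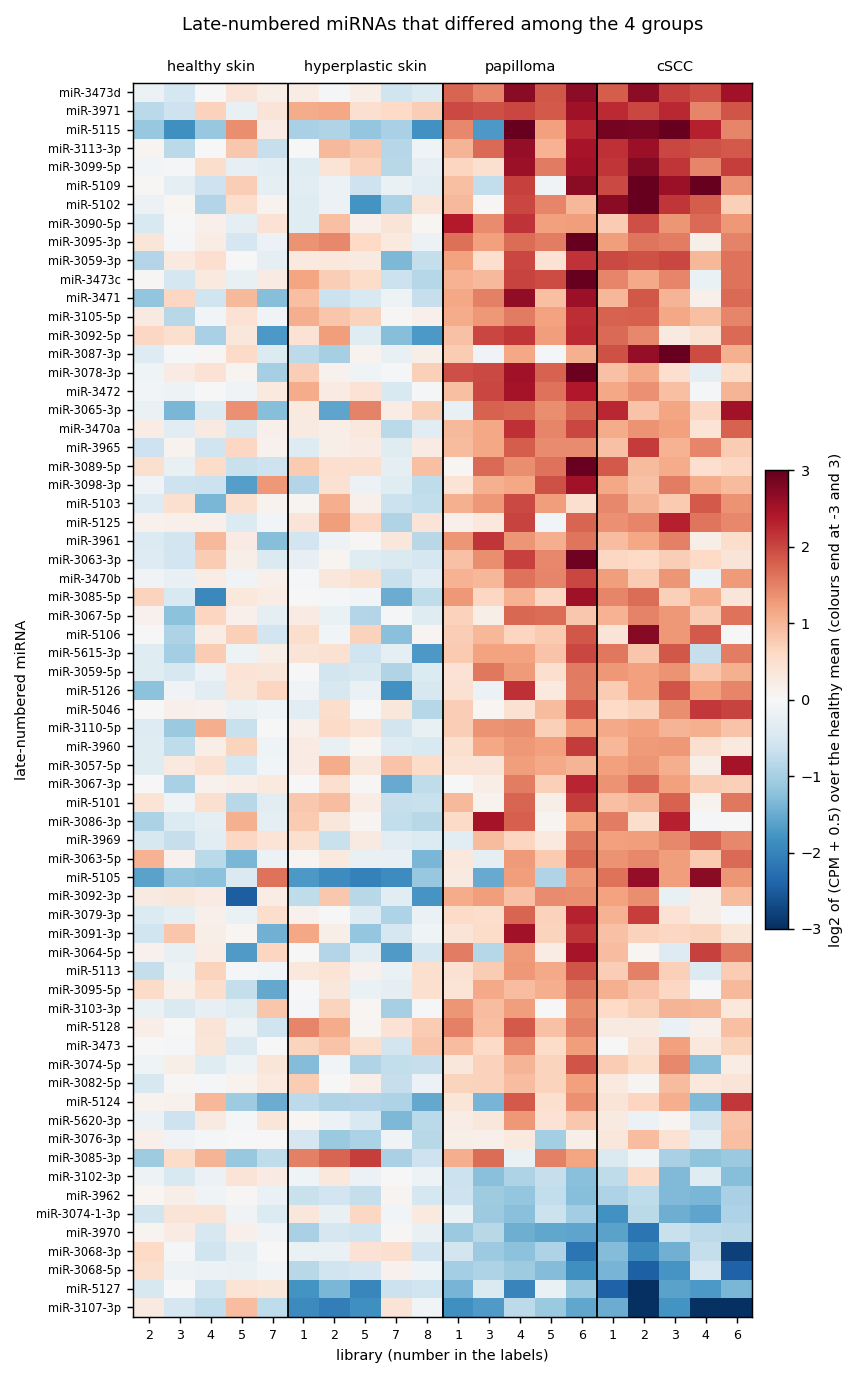
Log2 of (CPM + 0.5) over (mean healthy CPM + 0.5) for the 66 members called across the 4 groups, with 1 column per library in stage order and colours ending at ±3. The papilloma and cSCC columns hold most of the high values, and the mean was highest in papillomas for 35 of these members and in cSCC for 22.

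Papillomas differed from healthy skin in many late-numbered miRNAs, mostly upward. Of 127 tested members 48 rose and 7 fell, together 43.3%, beside a background of 44.7% of all 850 miRNAs (24.0% higher and 20.7% lower). The 48 log2 fold changes ran from 0.84 to 2.66, with a median of 1.54. Over all tested members the median log2 fold change was 1.0, beside 0.40 over all miRNAs. The split between higher and lower differed by abundance, far more among the other miRNAs than among the members. At a mean count of 5 to 20, 25 of 72 members rose and 0 fell, beside 71 and 3 of 227 other miRNAs. At 20 to 100, 15 of 33 members rose and 4 fell, beside 51 and 22 of 180 others. At 100 or more, 8 of 22 members rose and 3 fell, beside 33 and 144 of 312 others.

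These counts depended on the scaling and on single libraries. Here and in the comparisons below, calls over all miRNAs under other settings are not given. Counts of members under those settings thus cannot be read as particular to the members. With TMM factors taken from abundant miRNAs alone, 97 members were higher and 1 lower, and the median of all miRNAs moved by 0.68 on the log2 scale. With totals alone, 92 were higher and 1 lower, with a shift of 0.65. Without papilloma 4, or without papilloma 6, 30 members were called in all, and without healthy 4, 36. In raw counts all 48 members called higher also had the higher mean in papillomas, although those libraries were shallower. Called rises of at least 0.84 leave little room for another outcome, so this is not separate support. Raw counts were higher without overlap for 11 of the 127 tested members (8.66%), beside 4.47% of all miRNAs, and lower without overlap for 8 (6.3%), beside 19.5%.

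**Figure D4:**
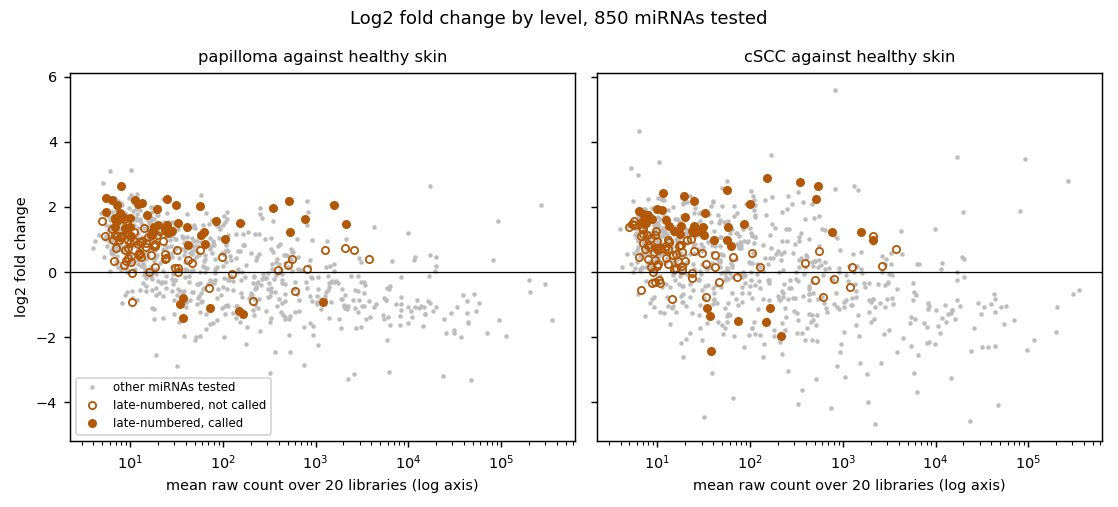
Log2 fold change against mean raw count (log axis) of all tested miRNAs, in papillomas against healthy skin and in cSCC against healthy skin; coloured points are members, filled where called and open where not, and grey points are other miRNAs. Most miRNAs called at a mean count of 5 to 20 lie above 0, for members (25 of 25 in papillomas) as for the others (71 of 74).

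Of the 8 members named miR-3470a to miR-3473d, 7 rose and 0 fell in papillomas against healthy skin, where 24.0% of all miRNAs tested rose. This group was picked by name after its values had been seen, so the count is a description. miR-3473d (chr8:111016498-111016521, minus strand, GRCm38; in an intron of Ddx19b) had 246, 201, 477, 269 and 472 CPM in papillomas, against 64.1, 50.7, 72.7, 95.0 and 82.5 CPM in healthy skin. Its lowest papilloma library was above its highest healthy library, in CPM as in raw counts. The log2 fold change was 2.19 (SE 0.29, edgeR adjusted p = 1.55e-05).

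miR-3473c (chr1:191998602-191998623, minus strand, GRCm38; in an exon of Traf5, which codes for a signalling adaptor of the TNF receptor family) had 563, 534, 1122, 1066 and 2361 CPM in papillomas, against 281, 190, 337, 235 and 325 CPM in healthy skin. The groups did not overlap, and papilloma 6 stood far above the rest. Its log2 fold change was 2.05 (SE 0.42, edgeR adjusted p = 0.000555), and 1.37 without papilloma 6. miR-3470b (chr16:44013885-44013905, plus strand, GRCm38; opposite to an intron of Gramd1c) had 963, 927, 1456, 1293 and 1864 CPM in papillomas, against 436, 404, 549, 435 and 516 CPM in healthy skin. Each papilloma library was above each healthy one, and the log2 fold change was 1.47 (SE 0.29, adjusted p = 0.000355).

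Others of the same number range followed. miR-3470a rose by 1.64 on the log2 scale (SE 0.30), miR-3471 by 2.11 (SE 0.54), miR-3472 by 2.04 (SE 0.35) and miR-3473 by 1.02 (SE 0.30). miR-3473b, the member that spells part of B2, did not pass, with 228, 267, 214, 109 and 102 CPM in papillomas, against 150, 152, 113, 158 and 214 CPM in the healthy libraries (0.23, SE 0.35, edgeR adjusted p = 0.604). Its groups overlapped, and under the scaling by abundant miRNAs it was called at 0.87 (adjusted p = 0.0214).

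Rarer members showed the widest folds. miR-3078-3p had 5.9, 6.12, 9.18, 5.23 and 12.5 CPM in papillomas, against 1.03, 1.5, 1.76, 1.28 and 0.345 CPM in healthy skin, a log2 fold change of 2.66 (SE 0.45, edgeR adjusted p = 9.23e-05). The groups were apart by a wide margin. miR-3971 (chr11:75551480-75551501, plus strand, GRCm38; in an intron of Slc43a2, an amino acid transporter gene) had 13.5, 13.1, 13.8, 12.2 and 20.4 CPM in papillomas, against 1.55, 1.8, 5.27, 2.55 and 4.14 CPM in healthy skin. It rose by 2.25 on the log2 scale (SE 0.35, edgeR adjusted p = 4.1e-05), also without overlap.

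miR-3090-5p rose by 2.22 (SE 0.48), with 2.79 to 6.74 CPM in papillomas, against 0.515 to 1.38 CPM in healthy skin. miR-3089-5p rose by 2.27 (SE 0.59), but its groups overlapped and the value was 1.50 without papilloma 6. At such levels a library held few counts of a miRNA, and the counting error alone is large.

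Some members numbered above 5000 were uneven among papillomas. miR-5115 had 127, 13.5, 436, 109 and 223 CPM in papillomas, against 20.6, 12.6, 20.7, 122 and 54.5 CPM in healthy skin. Papilloma 3 and papilloma 5 lay within the healthy range, and the log2 fold change of 1.98 (SE 0.61, edgeR adjusted p = 0.0114) was 1.18 without papilloma 4 (adjusted p = 0.125). miR-5109 had 37.9, 11.8, 84.9, 18.8 and 135 CPM in papillomas, against 20.6, 16.5, 13.0, 33.8 and 16.6 CPM in healthy skin. Its log2 fold change of 1.51 (SE 0.50, adjusted p = 0.0176) rested on papilloma 4, papilloma 6 and healthy 4: without each of them it was 1.16, 0.68 and 1.15, and no longer passed (adjusted p = 0.0994, 0.281 and 0.0878). miR-5126, the member of G and C alone, rose by 1.15 (SE 0.43), with 12.2 to 66.0 CPM in papillomas, against 5.67 to 22.1 CPM in healthy skin. miR-5102 passed at 1.24 (SE 0.46, adjusted p = 0.0323) and lost the call in 12 of the 20 fits that left out a library: hyperplastic 2, papilloma 1, 4, 5 and 6, healthy 2, 3, 4 and 7, and cSCC 1, 4 and 6 (0.74 to 1.20, adjusted p = 0.0502 to 0.236).

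The 7 members that fell in papillomas all had mean counts of 20 or more. miR-3068-5p and miR-3068-3p, the arms of 1 hairpin in an intron of Alkbh1 (chr12:87437724-87437747 and chr12:87437685-87437706, minus strand, GRCm38), fell by 1.20 (SE 0.33) and by 1.12 (SE 0.36). miR-3068-5p had 34.5, 36.7, 33.3, 28.2 and 19.3 CPM in papillomas, against 98.1, 63.0, 61.8, 60.6 and 66.3 CPM in healthy skin, and the groups did not overlap. Both arms lie over a snoRNA entry of the table. miR-3970 fell by 1.29 (SE 0.29, edgeR adjusted p = 0.00136), with 35.4, 43.2, 27.5, 25.8 and 25.5 CPM in papillomas, against 81.7, 91.5, 55.5, 85.8 and 71.1 CPM in healthy skin. Its groups did not overlap either.

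miR-3102-3p (chr7:100882307-100882329, minus strand, GRCm38; in an exon of Arhgef17) fell by 0.93 (SE 0.30), with 296, 191, 243, 284 and 192 CPM in papillomas, against 411, 335, 410, 599 and 544 CPM in healthy skin. miR-3962 fell by 0.98 (SE 0.27). miR-3074-1-3p fell by 0.81 (SE 0.32), a call lost without papilloma 3 (adjusted p = 0.0687) or healthy 3 (adjusted p = 0.0873). miR-3107-3p fell by 1.40 (SE 0.50), and lost the call without papilloma 3 (adjusted p = 0.05) or healthy 5 (-1.13, adjusted p = 0.0832). All 7 kept a negative log2 fold change under the scaling by abundant miRNAs, from -0.67 for miR-3107-3p to -0.19 for miR-3074-1-3p, where miR-3970 alone stayed past the threshold (-0.63, adjusted p = 0.0377).

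cSCC differed from healthy skin in 40 members that rose and 7 that fell. That was 37.0% of the 127 tested, beside a background of 47.5% of all miRNAs (26.2% higher and 21.3% lower). The median log2 fold change over the tested members was 0.81, beside 0.35 over all miRNAs, and the calls ran from 0.81 to 2.89 upward. By class, 17 of 72 members rose and 0 fell at a mean count of 5 to 20, beside 65 and 5 of 227 others. At 20 to 100 the members' counts were 16 and 4 of 33, beside 62 and 27 of 180, and at 100 or more 7 and 3 of 22, beside 56 and 142 of 312. All 40 that rose had the higher mean raw count in cSCC, which the size of the called rises by itself made likely. Raw counts were higher without overlap for 11 of the 127 tested members (8.66%), beside 5.29% of all miRNAs. With TMM factors from abundant miRNAs 89 were higher and 4 lower, with a median shift of all miRNAs of 0.72. The share of all miRNAs called under that scaling is not given here. Papillomas and cSCC were each set against the same healthy libraries, so the comparisons are not independent.

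The 3 largest folds in cSCC belonged to members numbered above 5000. miR-5109 had 81.3, 269, 121, 225 and 52.8 CPM in cSCC, against 20.6, 16.5, 13.0, 33.8 and 16.6 CPM in healthy skin. Every cSCC library was above every healthy one, and the log2 fold change was 2.89 (SE 0.52, edgeR adjusted p = 7.24e-05). miR-5115 had 343, 336, 542, 233 and 129 CPM in cSCC, all above its highest healthy library at 122 CPM, a log2 fold change of 2.78 (SE 0.62, adjusted p = 0.000756).

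miR-5102 had 522, 1187, 351, 282 and 131 CPM in cSCC, against 70.6, 82.8, 42.8, 115 and 85.2 CPM in the healthy libraries, and rose by 2.64 (SE 0.48, edgeR adjusted p = 8.32e-05). The groups were apart, and cSCC 2 held the highest level. miR-5105 had 72.7, 146, 55.9, 154 and 58.7 CPM in cSCC, against 7.21, 9.9, 9.48, 16.9 and 71.8 CPM in healthy skin. Only healthy 7 overlapped with the cSCC libraries, and the log2 fold change was 2.08 (SE 0.56, adjusted p = 0.00366), or 3.19 without healthy 7. miR-5126 rose by 1.40 (SE 0.42), with 24.2 to 53.2 CPM in cSCC, against 5.67 to 22.1 CPM in healthy skin.

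miR-3087-3p (chr2:25442813-25442833, plus strand, GRCm38; in an intron of Abca2, a lipid transporter gene) had 36.5, 60.3, 114, 37.6 and 20.0 CPM in cSCC, against 6.95, 9.0, 9.48, 14.0 and 6.9 CPM in healthy skin. All cSCC libraries were above all healthy ones, and the log2 fold change was 2.53 (SE 0.41, edgeR adjusted p = 1.94e-05). miR-3473d had 260, 474, 305, 279 and 421 CPM in cSCC and rose by 2.25 (SE 0.29, adjusted p = 1.03e-06). miR-3971 rose by 2.18 (SE 0.35), with 9.39 to 16.6 CPM in cSCC, against 1.55 to 5.27 CPM in healthy skin.

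Of the members named miR-3470a to miR-3473d, 6 of 8 rose and 0 fell in cSCC against healthy skin, where 26.2% of all miRNAs rose. Against papillomas 0 were higher and 1 lower in cSCC, where 6.82% of all miRNAs were higher and 4.71% lower. Against hyperplastic skin 4 were higher and 0 lower in cSCC, beside 24.5% and 20.5% of all miRNAs. In papillomas against hyperplastic skin 6 were higher and 0 lower, beside 21.3% and 17.1%. miR-3470b rose by 0.98 (SE 0.28), though cSCC 4, at 413 CPM, lay within the healthy range of 404 to 549 CPM. miR-3473c rose by 1.22 (SE 0.41, edgeR adjusted p = 0.0162) with cSCC 4 at 238 CPM against 190 to 337 CPM in healthy skin, and without cSCC 6 it did not pass (0.98, adjusted p = 0.0676). miR-3473 at 0.59 (SE 0.30, adjusted p = 0.103) and miR-3473b at -0.24 (SE 0.35, adjusted p = 0.596) did not pass. miR-3473b had a log2 fold change of 0.47 under the scaling by abundant miRNAs, also not called (adjusted p = 0.185).

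The 7 that fell in cSCC were miR-3107-3p, miR-5127, both arms of miR-3068, miR-3074-1-3p, miR-3970 and miR-3962. miR-3107-3p had 7.09, 2.01, 5.66, 2.24 and 1.96 CPM in cSCC, against 25.2, 14.7, 12.3, 40.5 and 12.1 CPM in healthy skin. It fell by 2.43 on the log2 scale (SE 0.53, edgeR adjusted p = 0.000592) without overlap between the groups. In raw counts 7 of the 127 tested members (5.51%) were lower without overlap, the same 7, beside a background of 20.9% of all miRNAs. miR-5127 had 22.4, 9.65, 40.4, 37.1 and 46.9 CPM in cSCC, against 88.3, 125, 81.1, 165 and 156 CPM in healthy skin, and fell by 1.98 (SE 0.40, adjusted p = 0.000278).

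miR-3068-5p fell by 1.54 (SE 0.33) and miR-3068-3p by 1.52 (SE 0.36), with 12.5 to 48.8 and 3.91 to 18.3 CPM in cSCC, against 60.6 to 98.1 and 19.7 to 46.4 CPM in healthy skin. The remaining falls were by 1.34 for miR-3074-1-3p (SE 0.33), by 1.12 for miR-3970 (SE 0.29) and by 1.10 for miR-3962 (SE 0.27). With the scaling by abundant miRNAs these 3 no longer passed (-0.62, -0.41 and -0.36). miR-3102-3p was not called in cSCC at -0.45 (SE 0.30, adjusted p = 0.215) and stood at 0.33 under that scaling, a change of sign.

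Between cSCC and papillomas few members differed. In cSCC 2 were higher and 5 lower than in papillomas, 5.51% of the tested members, beside a background of 11.5% of all miRNAs (6.82% higher and 4.71% lower). With totals alone 1 was higher and 7 lower. Without cSCC 1, or without cSCC 4, 3 members were called, and without papilloma 1, 3, 5 or 6, 4 were. miR-3087-3p had 36.5, 60.3, 114, 37.6 and 20.0 CPM in cSCC, against 16, 8.57, 21.2, 9.06 and 19.8 CPM in papillomas. The groups overlapped in cSCC 6 and papilloma 4, and the log2 fold change was 1.86 (SE 0.40, edgeR adjusted p = 0.00268). miR-5102 passed at 1.41 (SE 0.46, adjusted p = 0.0461), with 131 to 1187 CPM in cSCC, against 80.8 to 321 CPM in papillomas, and lost the call without papilloma 1, 3 or 6, cSCC 1 or cSCC 2 (adjusted p = 0.058 to 0.248).

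Of the 5 lower ones, all but miR-3472 had a mean count under 20. miR-3078-3p had 2.61, 3.22, 1.89, 0.895 and 1.96 CPM in cSCC, against 5.9, 6.12, 9.18, 5.23 and 12.5 CPM in papillomas, and fell by 1.83 (SE 0.44, edgeR adjusted p = 0.00664). The groups did not overlap. miR-3063-3p (chr11:95963304-95963325, minus strand, GRCm38; in a UTR of Igf2bp1, which codes for an mRNA-binding protein) had 4.1, 4.02, 4.53, 4.03 and 3.42 CPM in cSCC, against 5.05, 7.34, 12, 7.67 and 22.1 CPM in papillomas. It fell by 1.40 (SE 0.40, adjusted p = 0.0225), a call lost without papilloma 4 or 6, or cSCC 1, 2, 4 or 6 (adjusted p = 0.0534 to 0.225).

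miR-3085-3p had 1.86, 2.41, 1.13, 0.895 and 0.978 CPM in cSCC, against 6.32, 9.79, 2.3, 8.71 and 6.8 CPM in papillomas, and fell by 2.19 (SE 0.66, edgeR adjusted p = 0.0302). It lost the call in 8 of the 20 fits that left out a library: papilloma 1, 3, 5 and 6 and cSCC 1, 3, 4 and 6 (adjusted p = 0.05 to 0.0993). miR-3472 fell by 1.05 (SE 0.33, adjusted p = 0.0408). miR-5128 fell by 1.11 (SE 0.36, adjusted p = 0.0425), and 18 of the 20 fits without a library lost that call, those without papilloma 3 or cSCC 6 being the exceptions. miR-3473d differed by 0.06 (SE 0.28, adjusted p = 0.94) between cSCC and papillomas, miR-3971 by -0.07 (SE 0.32, adjusted p = 0.938) and miR-5109 by 1.39 (SE 0.49, adjusted p = 0.0703).

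Against hyperplastic skin, which had the same treatment, papillomas showed 49 members higher and 5 lower, 42.5% of those tested, beside a background of 38.4% (21.3% higher and 17.1% lower). Of the 49, 47 also had the higher mean raw count in papillomas, which the called rises by themselves made likely. With TMM factors from abundant miRNAs 81 were higher and 0 lower, and with totals alone 67 and 0, with median shifts of all miRNAs of 0.59 and 0.42. Without papilloma 6, 32 members were called. cSCC showed 39 higher and 5 lower, 34.6%, beside a background of 44.9% (24.5% higher and 20.5% lower). All 39 had the higher mean raw count, which the calls again made likely. With the abundant factors 76 were higher and 2 lower, with a median shift of 0.62. Shares of all miRNAs called under these other scalings are not given here. The median log2 fold change of the tested members was 0.99 in papillomas and 0.74 in cSCC, beside 0.27 and 0.28 over all miRNAs.

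miR-5115 showed the largest fold against hyperplastic skin in both tumour stages. It had 20.5 to 24.3 CPM in 4 hyperplastic libraries and 12.8 CPM in the other, and rose by 3.11 in papillomas (SE 0.63, edgeR adjusted p = 0.000903) and by 3.92 in cSCC (SE 0.66, adjusted p = 3.68e-05). Papilloma 3, at 13.5 CPM, lay within the hyperplastic range, and the other tumour libraries lay above it. miR-5105, at 6.64, 5.92, 5.25, 5.86 and 10.2 CPM in hyperplastic skin, was higher by 2.23 in papillomas (SE 0.59) and by 3.85 in cSCC (SE 0.61). All its cSCC libraries, from 55.9 CPM up, were above all hyperplastic ones. Papilloma 3, at 7.75 CPM, lay within its hyperplastic range, and the other papilloma libraries lay above that range. miR-5109 was higher by 1.84 in papillomas (SE 0.50), a call lost without papilloma 6 (1.16, adjusted p = 0.0687), and by 3.23 in cSCC (SE 0.52).

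miR-5102 was higher by 3.06 in cSCC (SE 0.49), with 131 to 1187 CPM there, against 22.6 to 102 CPM in hyperplastic skin. miR-3473d, at 85.1, 71.4, 83.6, 48.4 and 54.4 CPM in hyperplastic skin, was higher by 2.28 in papillomas (SE 0.29) and by 2.34 in cSCC (SE 0.30), and no tumour library overlapped with a hyperplastic one. miR-3473c, at 152 to 620 CPM in hyperplastic skin, was higher by 1.64 in papillomas (SE 0.41, edgeR adjusted p = 0.00487), and in cSCC its 0.82 (SE 0.41, adjusted p = 0.1) did not pass. miR-5620-3p, the second most abundant member, was higher by 1.14 in papillomas (SE 0.30, adjusted p = 0.00581), with 998 to 2109 CPM, against 339 to 895 CPM in hyperplastic skin. In this comparison its groups did not overlap, while against healthy skin it did not pass (0.68, SE 0.30, adjusted p = 0.0658).

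miR-3064-5p and miR-5124, both rare, were called against hyperplastic skin and in no other pair of groups. miR-3064-5p (chr11:106782736-106782757, minus strand, GRCm38; in a UTR of Ddx5, an RNA helicase gene) had 0.408 to 8.5 CPM in papillomas and 0.755 to 6.26 CPM in cSCC, against 0 to 1.15 CPM in hyperplastic skin. Its call in papillomas was lost without papilloma 6 (adjusted p = 0.0718), and in cSCC without hyperplastic 2, cSCC 4 or cSCC 6 (adjusted p = 0.0511 to 0.077). miR-5124 lost its call in papillomas without papilloma 4 (adjusted p = 0.0632) and in cSCC without cSCC 6 (adjusted p = 0.0521).

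The lower members against hyperplastic skin were both arms of miR-3068 and miR-3074-1-3p in both tumour stages, with miR-3102-3p and miR-3970 in papillomas and miR-3107-3p and miR-3085-3p in cSCC. Under the scaling by abundant miRNAs all 5 of the papilloma calls were lost, at -0.63 for miR-3068-3p to -0.27 for miR-3068-5p, and with totals alone as well. Of the cSCC calls, miR-3068-3p (-0.96, adjusted p = 0.0186) and miR-3074-1-3p (-0.93, adjusted p = 0.0294) stayed past the threshold under the abundant scaling, and the other 3 did not. miR-3068-3p fell by 1.17 in papillomas (SE 0.36), a call lost without hyperplastic 7 (adjusted p = 0.056), and by 1.56 in cSCC (SE 0.36). miR-3068-5p fell by 0.86 in papillomas (SE 0.32), which was lost without hyperplastic 5, 7 or 8, papilloma 1 or 6, or cSCC 1 (adjusted p = 0.0514 to 0.144), and by 1.19 in cSCC (SE 0.33). miR-3970 and miR-3102-3p lost the call in papillomas without hyperplastic 7 (adjusted p = 0.0899 and 0.0516), miR-3970 also without hyperplastic 8 (adjusted p = 0.054), and miR-3107-3p lost it in cSCC without hyperplastic 7 (adjusted p = 0.107). miR-3085-3p fell by 2.20 in cSCC (SE 0.65), with 0.895 to 2.41 CPM, against 8.66, 10.3, 12.9, 1.13 and 1.6 CPM in hyperplastic skin. The hyperplastic libraries of miR-3085-3p thus split into high and low ones, and the low ones lay within the cSCC range.

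Hyperplastic skin could not be set apart from healthy skin in any late-numbered miRNA. With edgeR's quasi-likelihood test 0 of 127 members passed, beside a background of 0 of 850 miRNAs, and DESeq2 gave 0 as well. At an unadjusted p under 0.05 there were 10 members and 75 miRNAs in all, and the smallest adjusted p was 0.442. The median log2 fold change of the members was 0.04, beside -0.01 over all miRNAs. miR-3971, at 7.21, 7.45, 4.47, 4.91 and 5.44 CPM in hyperplastic skin, against 1.55, 1.8, 5.27, 2.55 and 4.14 CPM in healthy skin, had a log2 fold change of 0.96 (SE 0.35, adjusted p = 0.442). It was the 1 member of 127 (0.787%) whose raw counts did not overlap between these groups, beside 1.65% of all miRNAs that were higher without overlap. miR-5127, with 31.5 to 81.2 CPM in hyperplastic skin, against 81.1 to 165 CPM in healthy skin, had -1.17 (SE 0.39, adjusted p = 0.442).

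Both a 5p and a 3p name were tested for 26 hairpins. In 1 of them, miR-5615, the names overlap each other in the table. RefSeq places each of these names on both strands, and the table's coordinates carry no strand, so they may not be arms of the same hairpin there. In papillomas against healthy skin both arms were called for 5 hairpins and 1 arm for 11, and the arms had the same sign in 25. Without miR-5615 these were 5, 10 and 24 of 25 hairpins. In cSCC against healthy skin both were called for 3 and 1 arm for 10, with the same sign in 19, or 3, 9 and 18 without miR-5615. The median log2 fold change of all tested members was 1.0 in papillomas and 0.81 in cSCC. Equal signs would thus be frequent among unrelated members too, and shares over other hairpins are not given here. miR-3068, miR-3059 and miR-3067 had both arms called in both stages. miR-3059-5p rose by 1.21 and miR-3059-3p by 1.50 in papillomas, and by 1.23 and by 1.83 in cSCC. miR-3067-5p rose by 1.38 and miR-3067-3p by 1.25 in papillomas.

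The arms of miR-3087, shown above, moved apart in cSCC. miR-3087-3p rose by 2.53, while miR-3087-5p was at -0.35 (adjusted p = 0.538), with 0.978 to 3.22 CPM in cSCC, against 1.38 to 3.3 CPM in healthy skin. In papillomas both arms were at 0.67, neither called. miR-3090-5p rose by 2.22 in papillomas and by 1.87 in cSCC, while the more abundant miR-3090-3p was at 0.27 and at -0.32 (adjusted p = 0.535 and 0.468). miR-3099-5p rose by 2.35 in cSCC, with miR-3099-3p at 0.13 (adjusted p = 0.84). The difference between arms was not tested, and 1 arm of most of these hairpins had a mean count under 20.

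**Figure D5:**
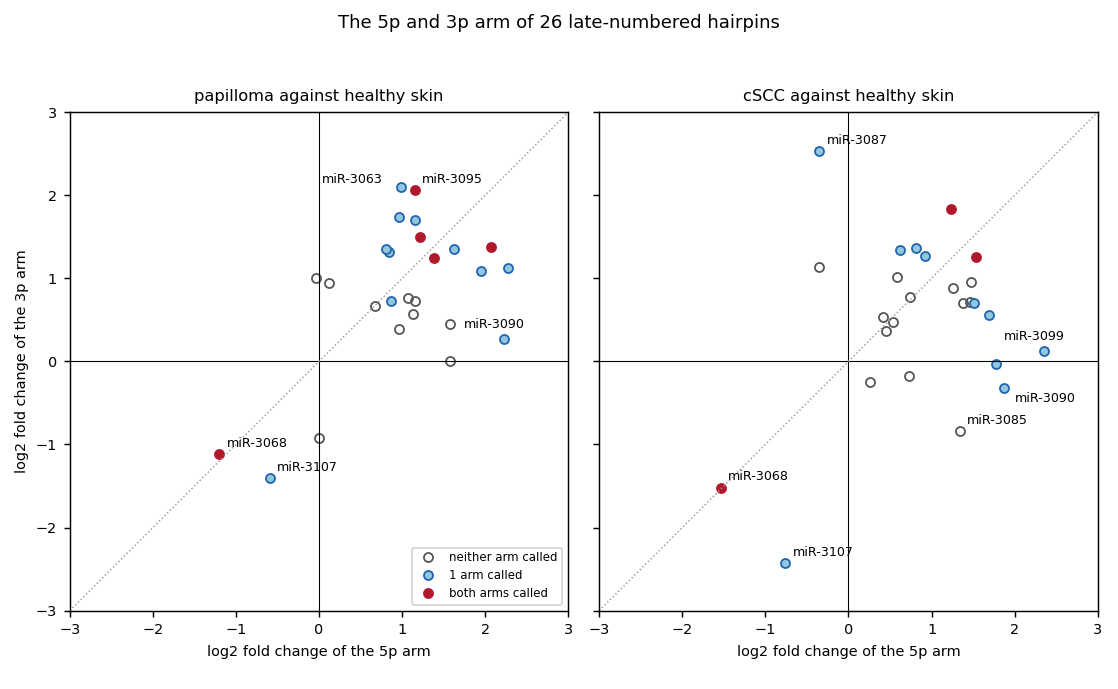
Log2 fold change of the 3p arm against that of the 5p arm for 26 hairpins, in papillomas against healthy skin and in cSCC against healthy skin, with the number of called arms shown by colour and a diagonal of equal change; the names of 1 hairpin, miR-5615, overlap in the table. In papillomas 25 of 26 hairpins have arms of the same sign; in cSCC 19 do, and miR-3087 lies far above the diagonal at -0.35 (5p) and 2.53 (3p).

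Most matched members lie inside genes. Of 111 matched members, 92 lay in a GENCODE gene and 19 in none. In protein-coding genes there were 89, of which 81 lay on the strand of the gene and 8 only on the opposite strand. Of those on the same strand 55 were in introns and 27 in a UTR or exon, with 1 member counted in both classes. The expression of these host genes was not measured here.

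Some members share their position with another entry of the table. 23 of the 145 overlapped another row by at least 1 base, 10 of them a snoRNA and 13 another miRNA, and 0 overlapped a tRNA, rRNA, snRNA or piRNA. Only deposited positions were compared, so a member whose sequence also occurs in a tRNA or rRNA elsewhere would not be found. The deposited positions of the 111 matched members are 2 bases wider than their sequences. In RefSeq's coordinates miR-3102-3p and miR-3102-3p.2-3p lie side by side without overlap, as do miR-3102-5p and miR-3102-5p.2-5p. miR-3107-3p, with a mean count of 37.5, overlaps miR-486-5p, an erythroid miRNA with a mean count of 28.05. miR-3074-5p, with a mean count of 10.25, overlaps miR-24-3p with 203290. miR-3074-1-3p, at 36.75, overlaps miR-24-1-5p at 406. In each of these pairs the arm names are opposite, 3p over 5p or 5p over 3p. The counts of miR-3074-5p and miR-24-3p were far apart, so most reads there were not counted under both names. How strand was handled in counting is not given, so whether reads of such pairs could be assigned to either name is not known. The falls of miR-3107-3p and miR-3074-1-3p are therefore uncertain as changes of those names.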

How the data were processed

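Total RNA of 20 skin samples was extracted with the miRNeasy kit, made into gel-sized small RNA libraries and sequenced on the SOLiD system, per the labels' protocols. The deposited table holds raw counts, whole numbers for each library and small RNA. The build is mm9, per the submitters' processing notes. The aligner, the counter and the handling of strand and of reads that match several places were not given in the sources used here. Sequences and hosts come from RefSeq and GENCODE on GRCm38, matched by name, and no coordinates were converted.

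All 1137 mature miRNAs entered edgeR 4.0.16 (R 4.3.3, limma 3.58.1): filterByExpr by group left 850, TMM factors scaled them, and 1 quasi-likelihood model over 20 libraries gave 6 comparisons and a test across the 4 groups. Tests were two-sided, adjusted by Benjamini-Hochberg, with a threshold of 0.05. SE follow from the F statistic. The code was tested on simulated counts. DESeq2 1.42.0, other scalings, filters and samples were alternatives. Members, lists and the rule for named miRNAs were chosen with earlier results of these data known, among them the rises of miR-3473c, miR-3473d and miR-5115, which are not independent support. Named are the examples of the rule (miR-3473c, miR-3473d, miR-5109, miR-5115), the 6 most abundant members, the 4 largest called changes each way per comparison and the 5 smallest adjusted p across the groups; others, such as miR-3473b, miR-5126, miR-3962 and arms of hairpins, were named after their values were seen.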

Additional observations from a re-analysis of the deposited data

Results flagged for a closer look

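Among the named members, 8 of 112 groups of 5 libraries held a library whose gap to the nearest of the others was over 0.71 of the group's range, the limit of Dixon's test. Chance flags about 1 group in 20. miR-5099 had 1058 CPM in healthy 7, with the other healthy libraries at 223 to 429 CPM, and 1937 CPM in hyperplastic 5, with the others at 161 to 601 CPM. miR-5105 had 71.8 CPM in healthy 7, with the others at 7.21 to 16.9 CPM, and 10.2 CPM in hyperplastic 8, with the others at 5.25 to 6.64 CPM. miR-5097 had 600 CPM in healthy 4, with the others at 212 to 299 CPM. miR-3068-5p had 98.1 CPM in healthy 2, with the others at 60.6 to 66.3 CPM. miR-3971 had 20.4 CPM in papilloma 6, with the others at 12.2 to 13.8 CPM. miR-5124 had 0.32 CPM in hyperplastic 8, with the others at 0.756 to 0.866 CPM. The highest miR-5099 and miR-5105 values of healthy skin came from the same library, healthy 7.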

How the results depend on the processing

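No late-numbered miRNA was called in hyperplastic against healthy skin under any alternative run. In papillomas against healthy skin, 55 members were called, and 98 with TMM factors from abundant miRNAs (at least 50 CPM), 93 with totals alone, 31 with no low-count filter, 31 with a mean of at least 20 counts and 27 with the replicate block. In cSCC against healthy skin the 47 became 93 with TMM factors from abundant miRNAs and 30 with the block. For cSCC against papillomas the 7 became 3 with the abundant factors, 2 with at least 20 counts, 2 with all small RNA features and 3 with only the 2 groups compared. For papillomas against hyperplastic skin the 54 became 26 with at least 20 counts and 13 with the block, and for cSCC against hyperplastic skin the 44 became 78 with the abundant factors and 18 with the block. Across the 4 groups the 66 became 103 with the abundant factors, 38 with at least 20 counts and 32 with the block. Counts of members follow in part from how many were tested, 145 with no filter and 55 with at least 20 counts. The cause of the other changes was not tested. The calls over all miRNAs under these settings are not given here, so the changes cannot be read as particular to the members. Leaving out 1 library at a time gave 0 to 0, 30 to 55, 38 to 51, 3 to 7, 32 to 59, 38 to 57 and 54 to 71 calls, in the order hyperplastic, papilloma and cSCC against healthy skin, cSCC against papillomas, papillomas and cSCC against hyperplastic skin, and across the groups. Of the 76 calls of named members, none changed sign: 561 of 652 values under other settings and 1438 of 1520 values with a library left out kept the call. The labels do not say what libraries of the same number share. Deviations of the 17 same-numbered pairs correlated between -0.167 and 0.226 (median -0.00315). Such values cannot show whether these libraries share a mouse or a batch, so what the block accounts for is not known. Of the 42 members numbered 5000 or higher, 5 overlapped another entry. Overlap with strand required was not run, since the table's coordinates carry no strand. Depth limits the 90 members with a mean count of 5 to 20 most.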
